A study of Homo sapiens with 4 samples.

Results

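The genes described here are 10 genes of interleukin-6 (IL6) family signalling in TPC1 cells: the ligands IL6, LIF, and IL11, the receptor subunits IL6ST, IL6R, LIFR, and OSMR, the transcription factor STAT3, and the inhibitors SOCS1 and SOCS3. They were chosen by name, and all 10 were found among the 20372 genes of the deposited table. TPC1, an established line from a human papillary thyroid carcinoma, carries a CCDC6-RET fusion, and BLU6864 inhibits the RET kinase. All 4 libraries came from TPC1 cells grown in DMEM with serum and exposed to BLU6864, 2 for 6 h and 2 for 24 h, so that every value compares a later with an earlier time in the same drug. The dose is 100 nM in the methods and 100 µM in the labels. The labels mark the 24 h libraries, and not the 6 h libraries, as re-analysed. Any difference in origin or handling behind this mark cannot be told apart from time. Vehicle libraries were not analysed here, so effects of the drug and of time in culture cannot be told apart either.

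Cytokines of the IL6 family share the signalling receptor gp130, the product of IL6ST. Each ligand joins gp130 to a partner, which is IL6R for IL6, LIFR for LIF, and OSMR or LIFR for oncostatin M. The assembled receptor activates JAK kinases, which phosphorylate STAT3, and STAT3 in turn switches on SOCS3, a feedback inhibitor that binds gp130 and the JAKs. The libraries measured RNA and hold no value for phosphorylation.

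Between 6 h and 24 h of BLU6864, IL6 and LIFR rose about 2.16-fold and 1.90-fold, while IL11, SOCS1, and SOCS3 fell, with levels at 6 h that were 3.80-fold, 3.63-fold, and 1.95-fold those at 24 h. The other 5 genes, STAT3, LIF, OSMR, IL6R, and IL6ST, moved by less, between a log2 fold change of -0.49 for IL6ST and 0.32 for STAT3. A gene was called when its absolute log2 fold change exceeded 0.5 with an unadjusted P under 0.01, the size cutoffs of the study's methods applied in both directions. By this rule 2 of the 10 genes were called higher and 3 lower at 24 h, and 35.1% of the 12876 genes tested were called, 17.4% higher and 17.7% lower. All 10 genes had a Benjamini-Hochberg adjusted P under 0.05 in edgeR's quasi-likelihood test, which 65.6% of the genes tested also had. Of the 10, 5 were higher and 5 lower on this count, against 33.0% and 32.6% of the genes tested. The 24 h libraries did not overlap the 6 h libraries in 10 of the 10 genes, against 81.8% of the genes tested. The median log2 fold change was -0.13 over the 10 genes and 0.0029 over all genes tested. In a culture measured in bulk, fewer cells that express a gene and less RNA per cell cannot be told apart.

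Total counts ranged from 23917056 to 27457040 per library, and values are given as normalized counts, the raw count scaled to the mean effective library size. Libraries of the same time had Spearman correlations of 0.998 or more, and those of different times 0.941 or less. Nothing states that the 2 libraries of a time came from separate cultures, so P measures the spread between these libraries, which may be technical. The test draws this spread largely from all genes together, so the P of 1 gene does not rest on its own libraries alone. Of the 9 thyroid epithelial markers examined, PAX8, FOXE1, TG, KRT8, and KRT18 were tested, whereas TSHR and NKX2-1 had 0 counts in every library. TG was called lower at 24 h (log2 fold change -1.09) and FOXE1 higher (0.84), while PAX8, KRT8, and KRT18 were not called. EPCAM, not tested, had 11 and 6 raw counts at 6 h and 1 and 1 at 24 h. Of 10 white blood cell markers, the defining genes PTPRC, CD3E, and TYROBP never exceeded 5 counts. The summed level of these 10 markers was 4662 to 4878 normalized counts at 6 h and 2685 to 2758 at 24 h, most of it CD68, which was called lower, while CD14 was called higher with 47 and 41 raw counts at 6 h and 85 and 91 at 24 h. Of 5 endothelial markers in the table, KDR and VWF were called lower, CDH5 had at most 1 count, and the sum was 539 to 565 normalized counts at 6 h and 46.7 to 69.7 at 24 h. The part of these markers in the results below was not tested.

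**Figure D1:**
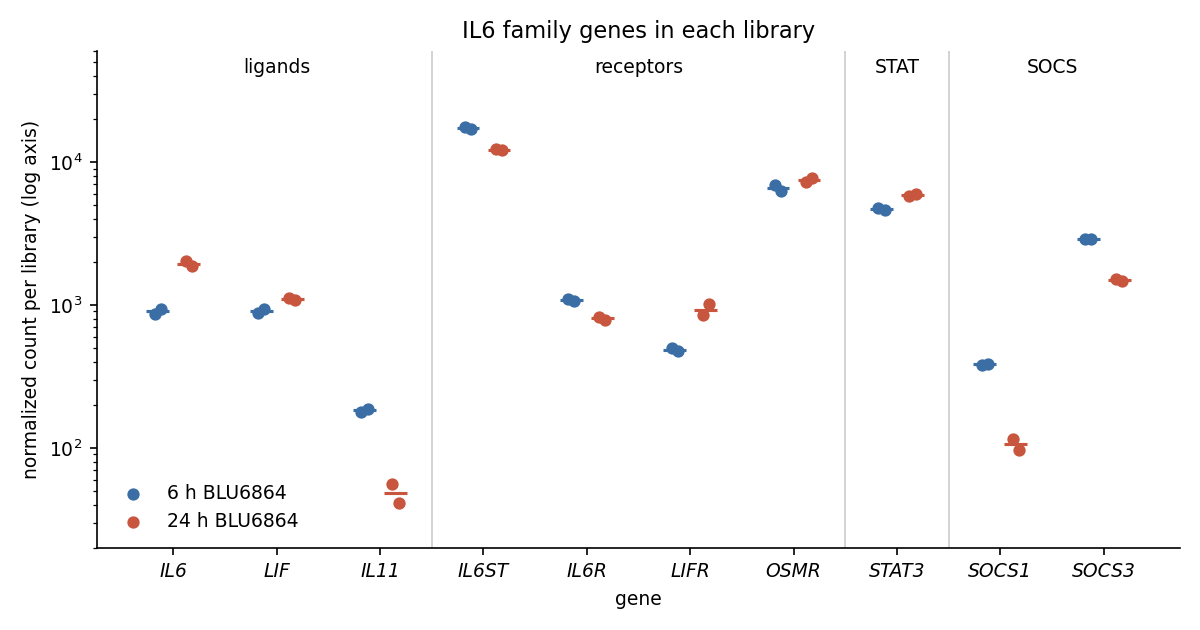
Normalized counts of the 10 genes in each library on a log axis, grouped by role, with 6 h in blue and 24 h in red. Points are libraries and short lines are the means of 2 libraries. The points of both times are apart in every gene, most widely in IL11 and SOCS1.

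The ligands moved apart from each other. Positions here and below are those of the table, on hg19. IL6 (ENSG00000136244, chromosome 7 from 22765503 to 22771621), a cytokine of inflammation and the acute phase, had 861 and 941 normalized counts at 6 h and 2023 and 1868 at 24 h. Both 24 h libraries stood well above both 6 h libraries. The means were 901 ± 56.4 (SD, n = 2) and 1946 ± 109.6, and the log2 fold change was 1.11 with a standard error (SE) of 0.0756 (edgeR adjusted P = 8.24e-13). IL6 thereby stood at the 94.0th percentile of the changes of all genes tested. IL11 (ENSG00000095752, chromosome 19 from 55875757 to 55881831), which signals through IL11RA and gp130, went the other way. It had 179 and 188 normalized counts at 6 h and 55.8 and 40.9 at 24 h, from raw counts of 166 and 196 and of 56 and 42. The 24 h libraries lay far below the 6 h libraries, and they differed from each other by more, relative to their mean, than those of any other gene of the 10. The log2 fold change of IL11 was -1.93 (SE 0.176, edgeR adjusted P = 3.00e-10), at the 3.59th percentile. LIF (ENSG00000128342, chromosome 22 from 30636436 to 30642840), a ligand of LIFR and gp130 known for its effects on stem cells, had 883 and 932 normalized counts at 6 h and 1116 and 1089.9 at 24 h. The libraries of the times did not overlap, but the log2 fold change of 0.28 (95% confidence interval 0.12 to 0.44, edgeR adjusted P = 0.00246) was under the size cutoff. Per kilobase of transcript, the ratio of LIF to IL6 was 0.298 and 0.288 at 6 h and 0.161 and 0.170 at 24 h. The ratio of IL11 to IL6 on the same scale was 0.0986 and 0.0947 at 6 h and 0.0131 and 0.0104 at 24 h.

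The sequences just before the transcription starts of IL6 and IL11 are shown because these ligands were called in opposite directions and each window holds a motif that the other lacks. They are the 250 bases before the RefSeq start, from GRCh38.p14, at chr7:22726950-22727199 on the plus strand for IL6 and at chr19:55370464-55370713 on the minus strand for IL11. Capitals mark the motif in each. In IL6 it is GGGATTTTCC, a match to the NF-kappaB motif (GGG and TTTCC around any 2 bases) at -73 to -64 from the start. In IL11 it is TGAGTCA, a match to the AP-1 motif TGANTCA at -96 to -90.
IL6: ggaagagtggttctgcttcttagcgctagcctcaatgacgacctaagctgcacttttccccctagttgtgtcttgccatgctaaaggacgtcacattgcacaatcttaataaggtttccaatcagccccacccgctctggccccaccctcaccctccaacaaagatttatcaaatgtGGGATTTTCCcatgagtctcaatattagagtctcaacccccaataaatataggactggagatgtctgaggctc
IL11: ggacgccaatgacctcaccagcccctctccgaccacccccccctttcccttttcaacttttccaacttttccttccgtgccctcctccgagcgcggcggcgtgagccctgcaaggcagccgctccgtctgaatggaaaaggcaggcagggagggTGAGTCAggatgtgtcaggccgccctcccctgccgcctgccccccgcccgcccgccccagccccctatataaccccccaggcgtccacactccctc

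Both strands were searched, and of 35116 windows of this length before RefSeq starts, 1.73% held the NF-kappaB motif and 6.57% the AP-1 motif. The CRE motif TGACGTCA was found in 1.65% of all windows. The spaced STAT motif, which is TTC and GAA around any 4 bases, was found in 5.38%. Neither had a match in the windows of the genes described here. Windows were matched for 9 of the 10 genes, all but LIF, with 12 start sites in all. Of these 12 windows, 4 held a match to any of the motifs searched. No matches overlapped each other. A match says only that these letters are present.

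**Figure D2:**
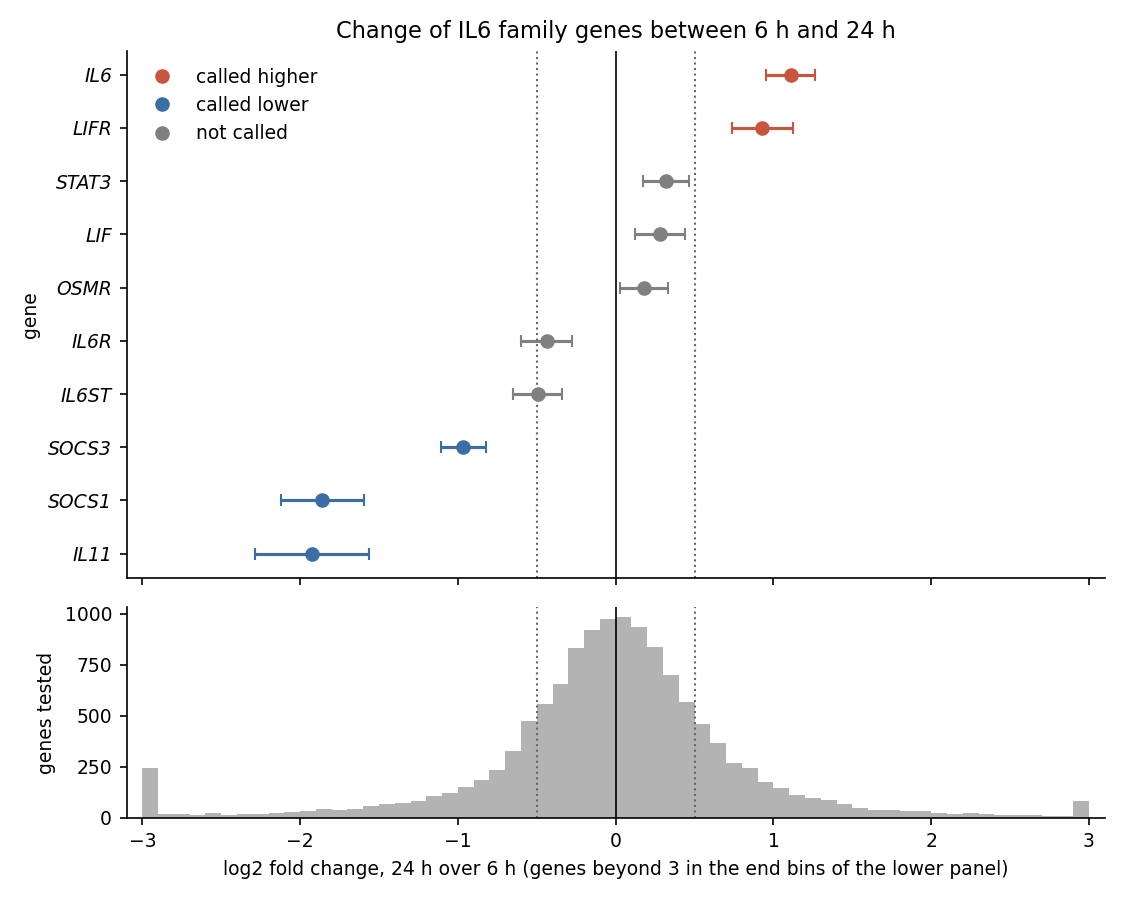
Log2 fold change, 24 h over 6 h, of each gene with its 95% confidence interval (upper panel) above the distribution over the 12876 genes tested (lower panel). Dotted lines mark the size cutoff of 0.5 in either direction. IL6 and LIFR lie to the right of it, SOCS3, SOCS1, and IL11 to the left, and IL6ST and IL6R have intervals that cross it.

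Among the receptor subunits, LIFR was called and the others were not. LIFR (ENSG00000113594, chromosome 5 from 38475065 to 38608456), which pairs with gp130 to bind LIF, had 499.8 and 476 normalized counts at 6 h and 845 and 1011 at 24 h. The 24 h libraries were both above the 6 h libraries, with the wider spread at 24 h. The log2 fold change was 0.93 (SE 0.0934, edgeR adjusted P = 1.89e-09), at the 91.9th percentile of all genes tested. IL6ST (ENSG00000134352, chromosome 5 from 55230923 to 55290821), the shared subunit gp130, had 17562 and 16894 normalized counts at 6 h and 12343 and 12113 at 24 h. All of its 24 h values lay below its 6 h values, and the log2 fold change of -0.49 (95% confidence interval -0.65 to -0.34, edgeR adjusted P = 2.78e-06) fell just short of the size cutoff. It passed that cutoff with library size alone as the scaling (-0.54), without the replicate 1 library at 24 h (-0.50), and without the replicate 2 library at 6 h (-0.53). IL6R (ENSG00000160712, chromosome 1 from 154377669 to 154441926), the subunit that binds IL6 itself, had 1107 and 1074 normalized counts at 6 h and 825 and 786 at 24 h. Its libraries did not overlap either, and its log2 fold change was -0.44 (95% confidence interval -0.60 to -0.27, edgeR adjusted P = 2.43e-05). OSMR (ENSG00000145623, chromosome 5 from 38845960 to 38945698), a subunit of the oncostatin M receptor, had 6865 and 6294 normalized counts at 6 h and 7240.0 and 7679 at 24 h. These values came close to each other, with a log2 fold change of 0.18 (95% confidence interval 0.028 to 0.33) and an edgeR adjusted P of 0.0350. The adjusted P of OSMR was 0.104 with library size alone, 0.209 without the replicate 2 library at 24 h, and 0.216 without the replicate 2 library at 6 h. Positions of OSMR overlap those of RICTOR in the table, and RICTOR had a log2 fold change of -0.31.

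The proportions of the receptor subunits differed between the times. Per kilobase of transcript, the ratio of OSMR to IL6ST was 0.639 and 0.609 at 6 h and 0.958 and 1.04 at 24 h. The ratio of LIFR to IL6ST was 0.0243 and 0.0241 at 6 h and 0.0586 and 0.0714 at 24 h. That of IL6R to IL6ST was nearly level, with 0.0987 and 0.0995 at 6 h and 0.105 and 0.102 at 24 h. These ratios describe RNA, and reads shared by isoforms of different length enter them.

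LIFR has 3 start sites in RefSeq, and windows before 2 of them are shown because they hold the STAT motif TTCNNNGAA, which 6.57% of all windows hold and which none of the other windows matched here holds. They lie on the minus strand of GRCh38.p14 at chr5:38595406-38595655 (LIFR start A) and chr5:38557468-38557717 (LIFR start B). Capitals mark TTCCTTGAA, at -165 to -157 from start A, and TTCATCGAA, at -182 to -174 from start B.
LIFR start A: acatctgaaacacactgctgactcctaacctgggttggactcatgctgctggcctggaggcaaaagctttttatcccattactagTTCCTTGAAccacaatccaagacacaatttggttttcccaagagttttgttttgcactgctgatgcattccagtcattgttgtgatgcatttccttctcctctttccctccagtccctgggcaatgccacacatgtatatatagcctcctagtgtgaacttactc
LIFR start B: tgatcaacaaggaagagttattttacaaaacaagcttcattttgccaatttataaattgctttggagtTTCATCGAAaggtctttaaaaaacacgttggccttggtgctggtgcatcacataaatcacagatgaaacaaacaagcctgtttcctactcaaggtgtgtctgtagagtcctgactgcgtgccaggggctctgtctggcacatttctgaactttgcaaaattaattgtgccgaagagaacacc

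The counts are per gene, so they do not say which start site the LIFR reads came from.

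STAT3 (ENSG00000168610, chromosome 17 from 40465342 to 40540586), the main transcription factor downstream of gp130, had 4755 and 4638 normalized counts at 6 h and 5789 and 5931 at 24 h. The libraries of the times were apart by more than the spread within either time. Its log2 fold change was 0.32 (95% confidence interval 0.17 to 0.46, edgeR adjusted P = 0.00029), and it was not called. SOCS3 (ENSG00000184557, chromosome 17 from 76352864 to 76356158), the feedback inhibitor of gp130, had 2908 and 2914 normalized counts at 6 h and 1512 and 1469 at 24 h. The libraries of each time were close to each other, and the times stood far apart. SOCS3 fell by 0.97 on the log2 scale (SE 0.0701, edgeR adjusted P = 3.04e-12). SOCS1 (ENSG00000185338), which inhibits JAK kinases directly and is best known for restraining interferon signalling, had 379.99 and 389 normalized counts at 6 h and 115.6 and 96.3 at 24 h. It fell by 1.86 on the log2 scale (SE 0.128, edgeR adjusted P = 9.71e-13), at the 3.75th percentile of all genes tested. SOCS1 lies on chromosome 16 of hg19 from 11348262 to 11350036, inside the interval of RMI2, a gene of DNA repair. RMI2 had 190.0 and 181 normalized counts at 6 h and 34.9 and 39.9 at 24 h (log2 fold change -2.31), and the strand setting of the counting is not given in the sources used here, so the part of RMI2 reads in the SOCS1 count was not tested. The window searched for SOCS1 and the 2 windows searched for SOCS3 held none of the motifs. The 2 SOCS3 windows lie at chr17:78360926-78361175 and chr17:78359668-78359917 on the minus strand of GRCh38.p14. The sequence between them was not searched, so the SOCS3 promoter may hold motifs that were missed. Other sequence outside these windows, and before any other start of SOCS3, was not searched either. The ratio of SOCS3 to STAT3 per kilobase of transcript was 1.10 and 1.13 at 6 h and 0.470 and 0.446 at 24 h. The ratio of SOCS1 to SOCS3 was 0.289 and 0.295 at 6 h and 0.169 and 0.145 at 24 h.

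The order of the levels changed with time. In normalized counts per kilobase of the MANE Select transcript, the order at 6 h was IL6ST (1908), OSMR (1191), SOCS3 (1065), STAT3 (954), IL6 (799.7), SOCS1 (310.4), LIF (234), IL6R (189), IL11 (77.2), and LIFR (46.2). No neighbours in this order overlapped between their 2 libraries. At 24 h it was IL6 (1727), IL6ST (1355), OSMR (1349.9), STAT3 (1191), SOCS3 (545), LIF (285), IL6R (139.8), LIFR (87.9), SOCS1 (85.6), and IL11 (20.3). Here IL6ST and OSMR did not differ beyond the spread of their libraries, and neither did LIFR and SOCS1. IL6 went from place 5 to place 1, SOCS1 from place 6 to place 9, and LIFR from place 10 to place 8. With the longest protein-coding transcript as the length, IL6 was at place 3 at 24 h, with 1274 against 1349.9 for OSMR, and its libraries overlapped those of OSMR. By that length SOCS1 was at place 7 at 6 h, below LIF, with 215 against 234.

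**Figure D3:**
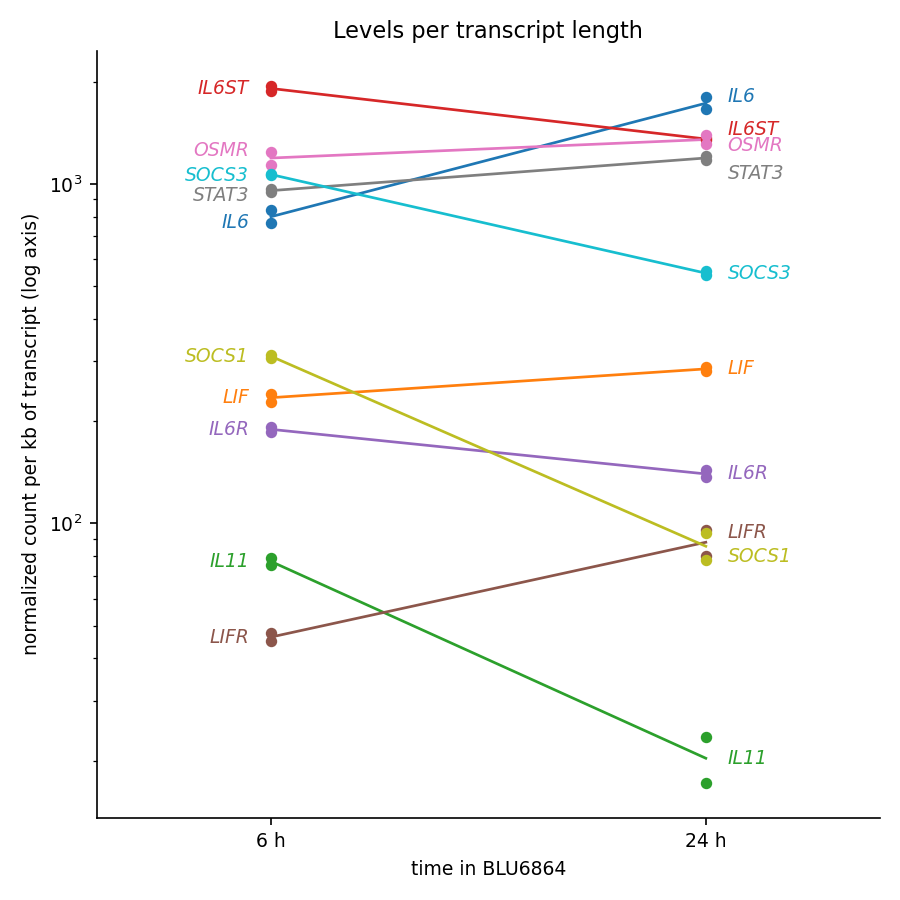
Levels of the 10 genes in normalized counts per kilobase of MANE Select transcript on a log axis, at 6 h and 24 h of BLU6864. Points are libraries and lines join the means of 2 libraries. The line of IL6 crosses those of STAT3, SOCS3, OSMR, and IL6ST, and the line of SOCS1 falls to that of LIFR.

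The rest of the family was mostly sparse. Of the 12 other ligands and receptors of the family examined, 8 passed the filter on low counts, with a median log2 fold change of 0.26. Of these 8, 2 were called higher and 1 lower, against 17.4% and 17.7% of all genes tested. CLCF1, a ligand that signals through the CNTF receptor and gp130, had 278 and 277 normalized counts at 6 h and 634 and 636 at 24 h. It rose with a log2 fold change of 1.19 (SE 0.0959, edgeR adjusted P = 2.48e-11). Its receptor subunit CNTFR had raw counts of 0 and 1 at 6 h and 3 and 0 at 24 h. EBI3, a subunit shared by interleukins 27 and 35, was called higher from raw counts of 10 and 15 to 30 and 31, and CNTF, the ligand named for ciliary neurons, was called lower from 36 and 25 to 8 and 18. Neither call was made with DESeq2, where the unadjusted P was 0.0257 for EBI3 and 0.0251 for CNTF. Among single libraries, the EBI3 call was lost without the replicate 1 library at 6 h or the replicate 2 library at 24 h, and the CNTF call without the replicate 1 library of either time, where its log2 fold change was -0.90 and -0.81. CTF1, the ligand cardiotrophin, had a log2 fold change of 0.72 with an edgeR adjusted P of 0.0408 and was not called. The receptor subunits IL27RA, IL11RA, and IL31RA had log2 fold changes of 0.37, -0.014, and -0.15. IL11RA, the partner of the falling IL11, had 253 and 262 normalized counts at 6 h and 256 and 254 at 24 h. Oncostatin M itself (OSM) had 1 read in the 4 libraries together, IL31 had 1, and IL27 had 0.

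The JAK and other STAT genes were mostly higher at 24 h. Of 10, JAK3 had 0 counts and 9 were tested, with a median log2 fold change of 0.55. By the call rule 6 of the 9 were higher and 0 lower, against 17.4% and 17.7% of all genes tested. TYK2, another gp130-associated kinase, was the 1 gene of the list that was lower at an unadjusted P under 0.05 (log2 fold change -0.25, edgeR adjusted P = 0.0026), as 33.9% of the genes tested were, and DESeq2 also called 0 lower. JAK2 and JAK1, kinases that bind gp130, rose with log2 fold changes of 1.02 and 0.71. STAT6, which transmits interleukin-4 signals, had 0.61, STAT2 0.55, and STAT5B 0.51. STAT2 was under the size cutoff without the replicate 2 library at 6 h (0.48), and STAT5B with library size alone (0.47) and without the replicate 1 library at 24 h (0.46). STAT4 and STAT5A had log2 fold changes of 0.19 and 0.012, with 95% confidence intervals from -0.28 to 0.67 and from -0.40 to 0.43.

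SOCS1 and SOCS3 were the only SOCS genes tested that were called. The list of 15 other SOCS genes and inhibitors of JAK/STAT signalling held SOCS2, SOCS4, SOCS5, SOCS6, SOCS7, CISH, PIAS proteins, and tyrosine phosphatases. Of its 13 tested genes, 0 were called in either direction by edgeR or DESeq2, while edgeR called 35.1% of all genes tested. At an unadjusted P under 0.05 in edgeR, 4 of these 13 were higher and 3 lower, against 34.4% and 33.9% of the genes tested, so both shares were near or under the background. The median log2 fold change was 0.065. The changes ranged from -0.39 in SOCS4 to 0.40 in PTPN11, which encodes the phosphatase SHP2. CISH, a SOCS family member induced by STAT5, had 63 and 81 raw counts at 6 h and 72 and 81 at 24 h. SOCS2 and SOCS7 also had few reads, with 35 to 45 and 96 to 141 raw counts per library.

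Genes known to respond to STAT3 moved in both directions. The list held 29 such genes, many of which also respond to other factors, and 22 passed the filter on low counts. Of these, 9 were called higher and 6 lower, against 17.4% and 17.7% of all genes tested. The median log2 fold change was -0.052. The call of HP, which encodes haptoglobin and had few counts, was lost with DESeq2 and without any 1 of the 4 libraries. SAA1, which encodes a serum amyloid protein, had 709 and 674 normalized counts at 6 h and 5646 and 4909 at 24 h, and its log2 fold change was 2.93 (SE 0.0839, edgeR adjusted P = 4.59e-21). SAA2 rose with a log2 fold change of 1.80, and because SAA1 and SAA2 are nearly identical, reads may be split between them. LBP, which binds bacterial lipopolysaccharide, had 2 and 3 raw counts at 6 h and 137 and 121 at 24 h, a ratio of 50.0 with an exact 95% interval from 21.2 to 155 that covers counting error only. LRG1, a secreted glycoprotein, rose with a log2 fold change of 1.85, and MYC, a driver of growth, with 2.51. The lower genes included FOS and JUNB, which encode AP-1 subunits, with log2 fold changes of -1.75 and -1.18. TIMP1, an inhibitor of matrix proteases, fell from 35508 and 33546 normalized counts to 12793 and 13357, a log2 fold change of -1.40. PIM1, a survival kinase, and BCL3, a regulator of NF-kappaB, had log2 fold changes of -1.39 and -1.07. Of the other acute phase genes of the list, A2M, SERPINA3, FGA, FGG, CRP, and HAMP had at most 3 counts in any library and were not tested. FGB, another of them, was called higher, from raw counts of 0 and 1 at 6 h to 20 and 20 at 24 h.

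**Figure D4:**
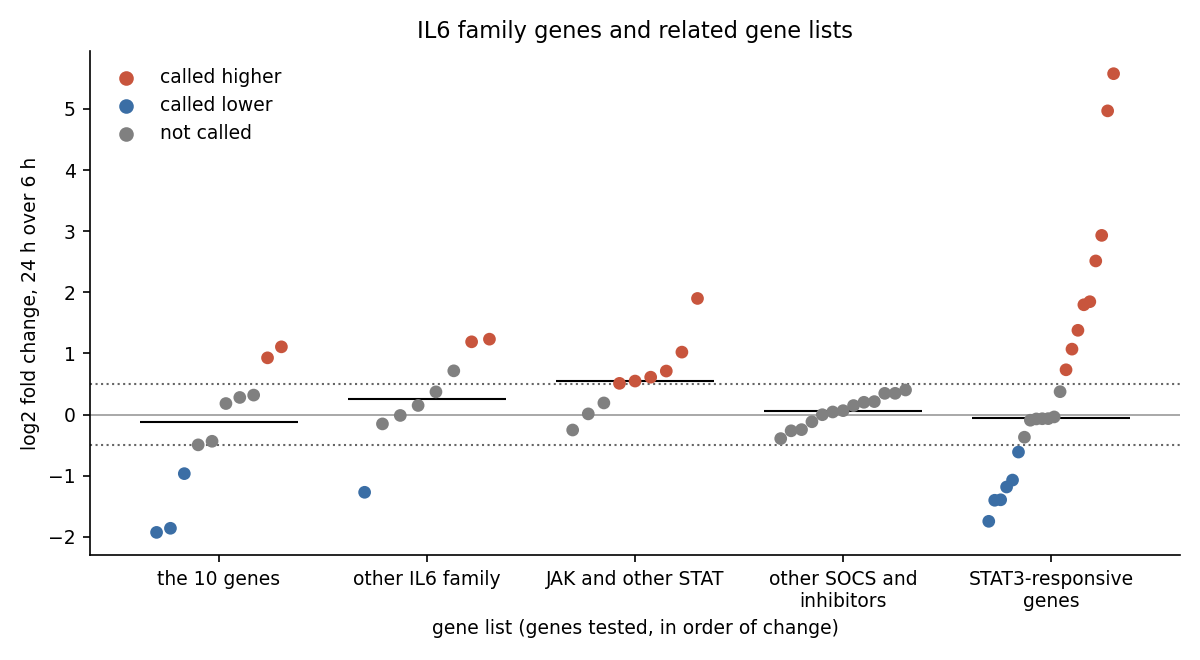
Log2 fold change, 24 h over 6 h, of the tested genes of the 10 genes described and of 4 related lists, each ordered by change, with black lines at the medians and dotted lines at the size cutoff of 0.5. Of the JAK and other STAT genes, 6 of 9 lie above the cutoff, whereas 0 of 13 other SOCS and inhibitor genes lie beyond it and the STAT3-responsive genes spread to both sides. By the call rule 17.4% of all genes tested were higher and 17.7% lower.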

How the data were processed

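RNA from TPC1 cells in BLU6864 for 6 h or 24 h, with 2 libraries per time, was sequenced and aligned by the authors with STAR (version 2.3 in the submitters' processing notes, a later version in the methods). The authors deposited raw counts per gene with hg19 positions, and a normalized signal, the count over the size factor of its library. The counting program is not given in the sources used here. The deposited log2 fold changes, Wald score, and p-values of the authors' DESeq2 comparison were not used. The labels give shorter single-end reads where the methods give paired-end reads.

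In R 4.3.3, edgeR 4.0.16 was run on the raw counts, with filterByExpr, which kept 12876 genes, TMM scaling, the quasi-likelihood test with time as the factor, and Benjamini-Hochberg adjustment over all genes tested. The F statistic gave the standard errors. Levels per kilobase used MANE Select lengths of GENCODE v44, matched by Ensembl identifier for 10 of the 10 genes. Ratios per kilobase with SOCS1 or IL6 depend on this choice. Their MANE Select transcripts have 1238 and 1127 bases, and their longest protein-coding transcripts 1784 and 1527. Promoter sequences were those of RefSeq, GRCh38.p14. The 10 genes and the lists were chosen with earlier results of these data known. From each list, the called genes with a mean normalized count of at least 20 were named, at most 5 in each direction, as were other family members, JAKs, and STATs that passed the filter. Other genes named were chosen after their values were seen. Motifs in proteins were planned and not searched here. Values of certain listed genes are not reported here. The procedure was tested on simulated data. Alternatives were DESeq2 1.42.0, 2 other scalings, 2 other filters, the replicate number as a block, another call rule, and each library left out.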

Additional observations from a re-analysis of the deposited data

How the results depend on the processing

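With an adjusted P under 0.05 as the call rule, whatever the size of the change, 5 of the 10 genes were higher and 5 lower, 12 genes of the 4 related lists were lower in place of 7, and 4247 genes of the table were higher and 4196 lower in place of 2238 and 2278. That rule differs in both the size cutoff and the cutoff on P. Of 100 recomputed log2 fold changes of the 10 genes, 10 settings for each, 0 changed sign, 97 stayed on the same side of the call rule, and 3, all of IL6ST, passed it. With DESeq2, 2027 genes were higher and 2114 lower. The fits that left out a library have 1 library at a time, which is assumed to vary like the others. The labels do not say what replicate numbers 1 and 2 mark, and the deviations of same-numbered libraries correlated at 0.129 across genes. A fit with the replicate block gave 2283 genes higher and 2313 lower, and 2 and 3 of the 10 genes. With at least 10 counts required in every library, CNTF, FGB, HP, and LBP were not tested.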

Other observations

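Several of these genes lie next to relatives in the hg19 positions of the table. LIFR and OSMR are adjacent on chromosome 5, 237504 bases apart, with log2 fold changes of 0.93 (95% confidence interval 0.74 to 1.12) and 0.18 (0.028 to 0.33). LIF lies 15978 bases from OSM, and had between 818 and 1120 raw counts in each library where OSM had at most 1. IL6ST lies 12245 bases from IL31RA, and their log2 fold changes were -0.49 and -0.15. STAT3 lies 1381 bases from STAT5A, with log2 fold changes of 0.32 (95% confidence interval 0.17 to 0.46) and 0.012 (-0.40 to 0.43), and the interval of STAT5A, which had 53 to 74 raw counts per library, holds the STAT3 value. Differences between neighbours were not tested.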
